A study of Homo sapiens with 4 samples.

Results

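The genes described here are 9 genes of drug handling in liver cells: the xenobiotic receptor gene NR1I2, the oxidising enzyme genes CYP3A4, CYP3A5, CYP3A7 and CYP2E1, the conjugating enzyme gene SULT2A1, and the efflux pump genes ABCB1, ABCC2 and ABCC3. They were taken by name, with earlier results of these data known, and all 9 were found among the 32479 Ensembl genes of the deposited table. RNA was sequenced from 4 libraries of established human liver cancer lines. HepG2, a hepatoblastoma-derived line, and PLC/PRF/5, a hepatoma line with integrated hepatitis B virus DNA, were each cultured for 24 h with 20 uM PF-429242 or left untreated. Both lines are labelled wild type and grew in the same serum-containing medium, and the labels name no vehicle in the controls. PF-429242 blocks MBTPS1 (site-1 protease), which cuts SREBPs and other membrane-bound transcription factors in the Golgi so that they can reach the nucleus. Each group held 1 library, so differences between single libraries have no replicate check and are given without a p-value.

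NR1I2 encodes the pregnane X receptor (PXR), a nuclear receptor that binds many drugs, pairs with RXR and switches on genes of drug clearance, CYP3A4 and ABCB1 among them. In adult liver CYP3A4 oxidises a large share of medicines, CYP3A7 is the fetal form of the same subfamily, CYP3A5 is a polymorphic relative and CYP2E1 oxidises ethanol and small solvents. SULT2A1 puts sulfate on dehydroepiandrosterone and bile acids. P-glycoprotein (ABCB1) and MRP2 (ABCC2) pump drugs and conjugates into bile, and MRP3 (ABCC3) returns conjugates to blood. Liver cancer lines are known for low levels of many of the P450 enzymes.

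The sequence before a start site is shown for the CYP3A genes, as neighbours with different levels, and for SULT2A1 and ABCB1, because these had the largest ratios of treated to control FPKM among the 5 genes at 1 FPKM or more in PLC/PRF/5. The sequences are those of RefSeq on GRCh38.p14, which held windows for 8 of the 9 genes (10 start sites). Each runs 5′ to 3′ on the gene's strand, up to the outermost start that RefSeq or GENCODE 29 gives. Capitals mark the nuclear receptor hexamers AGTTCA and AGGTCA on either strand and, where 2 of them face away from each other across 6 bases, the whole everted repeat (ER6). All motifs were searched on both strands, and the hexamers inside an everted repeat were also counted alone.
CYP3A4 (chr7:99784266-99784434, minus strand): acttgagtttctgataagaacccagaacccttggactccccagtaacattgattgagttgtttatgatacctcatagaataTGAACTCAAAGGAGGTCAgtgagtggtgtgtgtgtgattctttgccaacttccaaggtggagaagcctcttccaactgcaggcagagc
CYP3A5 (chr7:99680027-99680246, minus strand): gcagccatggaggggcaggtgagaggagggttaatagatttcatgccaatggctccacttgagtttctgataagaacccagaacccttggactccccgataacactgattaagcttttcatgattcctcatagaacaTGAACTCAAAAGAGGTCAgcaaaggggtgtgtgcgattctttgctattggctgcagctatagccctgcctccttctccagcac
CYP3A7 (chr7:99735197-99735446, minus strand): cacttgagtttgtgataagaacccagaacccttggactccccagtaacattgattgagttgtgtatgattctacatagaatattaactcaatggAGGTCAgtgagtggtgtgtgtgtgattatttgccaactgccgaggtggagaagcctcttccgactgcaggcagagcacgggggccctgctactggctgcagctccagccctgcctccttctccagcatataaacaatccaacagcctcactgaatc
SULT2A1 (chr19:47886398-47886565, minus strand): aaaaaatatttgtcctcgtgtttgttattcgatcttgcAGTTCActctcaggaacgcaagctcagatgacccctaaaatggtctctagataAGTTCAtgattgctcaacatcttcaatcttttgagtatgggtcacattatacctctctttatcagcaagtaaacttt
ABCB1 upstream start (chr7:87713324-87713545, minus strand): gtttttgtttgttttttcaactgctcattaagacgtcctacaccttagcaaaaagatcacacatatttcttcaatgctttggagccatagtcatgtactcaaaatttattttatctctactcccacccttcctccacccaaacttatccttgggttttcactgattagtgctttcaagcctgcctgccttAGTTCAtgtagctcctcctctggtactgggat
ABCB1 downstream start (chr7:87600885-87601134, minus strand): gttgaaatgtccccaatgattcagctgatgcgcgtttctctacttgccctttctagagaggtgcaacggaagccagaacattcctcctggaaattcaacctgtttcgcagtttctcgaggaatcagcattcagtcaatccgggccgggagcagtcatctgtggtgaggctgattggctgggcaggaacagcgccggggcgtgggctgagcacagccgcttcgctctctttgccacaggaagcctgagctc

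The everted repeat of AGTTCA on the opposite strand, 6 bases of any letter and AGGTCA was found before CYP3A4 and CYP3A5. Counting these 2, it was in 3 of 35116 RefSeq windows of the same 250 bases (0.00854%). Everted repeats of 2 AGTTCA or of 2 AGGTCA hexamers were found in none of the 10 windows of these genes. In CYP3A4 the 18 bases lay at positions -169 to -152 from the RefSeq start, and in CYP3A5 at -113 to -96. Counted from 1 at the 5′ end of the CYP3A4 element, the CYP3A5 element differed by G11A, in the spacer, and the matching 18 bases of CYP3A7 by G2T and A10T, so that CYP3A7 held the AGGTCA hexamer alone. The hexamer AGTTCA, which 8.80% of all windows held, occurred before NR1I2, CYP3A4, CYP3A5, SULT2A1 and the upstream start of ABCB1. AGGTCA occurred before CYP3A4, CYP3A5, CYP3A7 and CYP2E1, and in 12.1% of all windows. The sterol element TCACCCCAC, held by 0.362% of windows, was in none of the 10. A match describes letters and is not a measured binding site.

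**Figure D1:**
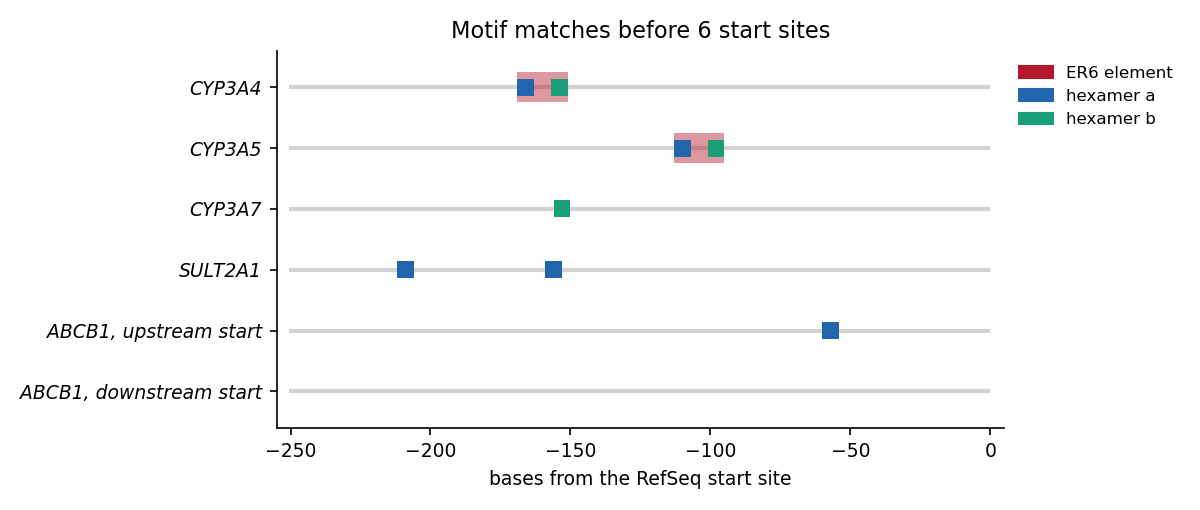
Positions of motif matches before 6 RefSeq start sites, in bases from the start site, with the ER6 element as a wide pale box and the hexamers AGTTCA (a) and AGGTCA (b) as narrow boxes. The element lies at -169 to -152 for CYP3A4 and at -113 to -96 for CYP3A5, and CYP3A7 has hexamer b without hexamer a.

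The libraries held 20350701 (treated HepG2), 16722204 (control HepG2), 16982560 (treated PLC/PRF/5) and 21387301 (control PLC/PRF/5) fragments, recovered from the steps in the deposited FPKM values (fragments divided by gene length and by library total). Mitochondrial genes took 27.6% of fragments in treated and 16.6% in control HepG2, and 28.2% in treated and 21.3% in control PLC/PRF/5, which leaves a smaller share to all other genes in the treated libraries. The median log2 ratio of (FPKM + 1) over all genes at 1 FPKM or more was -0.17 in HepG2 and -0.13 in PLC/PRF/5. All 8 liver cell markers examined were above 1 FPKM in every library, with ALB at 2421 and 2586 FPKM in treated and control HepG2 and at 1148 and 624 FPKM in treated and control PLC/PRF/5. None of the 5 fibroblast markers reached 1 FPKM in any library (summed level 0.656 to 0.968 FPKM). MBTPS1 was at 13.4 and 13.0 FPKM in treated and control HepG2 and at 9.38 and 9.70 FPKM in treated and control PLC/PRF/5.

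The 9 genes spanned more than 3 orders of magnitude in level. ABCC2 was the highest of them in every library and lay above 98.8% to 99.4% of all genes, while CYP3A4 and CYP2E1 were near the detection floor throughout. In each library 5 of the 9 reached 1 FPKM and 4 did not, but the set differed by line: NR1I2 was above 1 FPKM in HepG2 and below it in PLC/PRF/5, and CYP3A5 the other way round. SULT2A1, ABCB1, ABCC2 and ABCC3 reached 1 FPKM in all 4 libraries, and CYP3A4, CYP3A7 and CYP2E1 in none. In HepG2 the order was ABCC2, SULT2A1, ABCB1, ABCC3, NR1I2, CYP3A5, CYP3A7, CYP3A4, CYP2E1, with and without PF-429242. In PLC/PRF/5 it began ABCC2, SULT2A1, ABCB1, ABCC3, CYP3A5, NR1I2 in both libraries. Neighbours in these orders differed beyond counting error, except CYP3A4 and CYP2E1 in HepG2 and the last 3 genes (CYP3A4, CYP2E1 and CYP3A7) in PLC/PRF/5.

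**Figure D2:**
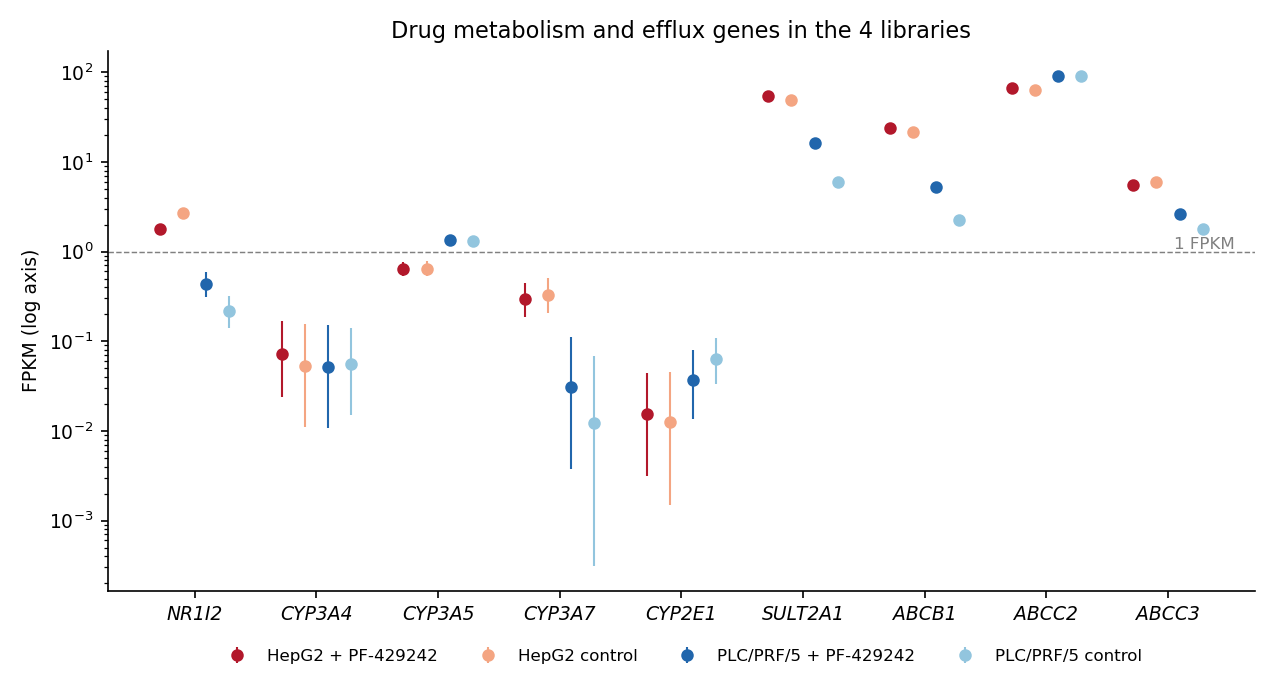
FPKM of each gene (log axis) in the 4 libraries, with exact 95% Poisson intervals of the recovered fragments (counting error only) and a dashed line at 1 FPKM. ABCC2 lies at 63.6 to 91.0 FPKM in all libraries, whereas SULT2A1 and ABCB1 stand higher in both HepG2 libraries than in either PLC/PRF/5 library.

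The receptor gene NR1I2 (ENSG00000144852, chromosome 3, 119780484 to 119818485, plus strand) was at 1.78 FPKM (195 fragments) in treated and 2.72 FPKM (245 fragments) in control HepG2. In PLC/PRF/5 it was at 0.438 FPKM (40 fragments) with PF-429242 and 0.217 FPKM (25 fragments) in the control. The HepG2 libraries were therefore both above the PLC/PRF/5 libraries, and the treated library was the lower of the pair in HepG2 and the higher in PLC/PRF/5. The ratio of treated to control FPKM was 0.654 in HepG2 (95% counting interval 0.539 to 0.793) and 2.01 in PLC/PRF/5 (1.19 to 3.47). Intervals are exact conditional binomial ones on the fragments and cover counting error only, because each group held 1 library. PCR copies of 1 molecule cannot be recognised here, so the intervals may be too narrow even for counting error. On the scale of equal FPKM sums the ratios were 0.519 in HepG2 (0.428 to 0.629) and 1.60 in PLC/PRF/5 (0.945 to 2.75). With so few fragments in PLC/PRF/5, NR1I2 did not pass the 1 FPKM filter there, and its log2 ratio of (FPKM + 1), 0.24, understates the fold.

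The P450 genes of the CYP3A subfamily lie side by side on chromosome 7, and none of their ratios had a counting interval apart from 1 as deposited. CYP3A5 (ENSG00000106258, 99648194 to 99680026, minus strand) was at 0.641 FPKM in treated and 0.646 FPKM in control HepG2, and at 1.34 FPKM in treated and 1.32 FPKM in control PLC/PRF/5. The ratios were 0.992 (0.761 to 1.30) in HepG2 and 1.02 (0.850 to 1.22) in PLC/PRF/5. On the scale of equal FPKM sums they were 0.788 (0.604 to 1.03) in HepG2 and 0.807 (0.674 to 0.966) in PLC/PRF/5. Of CYP3A4, CYP3A5 and CYP3A7, CYP3A5 alone reached 1 FPKM, and it did so in PLC/PRF/5.

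CYP3A7 (ENSG00000160870, 99684957 to 99735196, minus strand) was at 0.297 FPKM (23 fragments) in treated and 0.330 FPKM (21 fragments) in control HepG2, a ratio of 0.900 (0.476 to 1.71). In PLC/PRF/5 it had 2 fragments with PF-429242 and 1 in the control, too few for a fold. CYP3A4 (ENSG00000160868, 99756960 to 99784265, minus strand) had 5 fragments in treated and 3 in control HepG2, and 3 in treated and 4 in control PLC/PRF/5. These are 0.0726, 0.0530, 0.0522 and 0.0553 FPKM, close to the 0.0415 to 0.0530 FPKM that 3 fragments give. The counting interval of the CYP3A4 ratio in HepG2 was 0.266 to 8.82, and in PLC/PRF/5 0.138 to 5.58, so a difference of several fold was not detectable at this depth. Of the CYP3A7 transcript sequence in GENCODE 29, 39.8% of 50-base stretches also occur in another gene, chiefly the read-through gene CYP3A7-CYP3A51P, against 7.99% for CYP3A4 and 2.41% for CYP3A5. The sources used here do not say how such reads were assigned, so the CYP3A7 level in particular is uncertain.

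CYP2E1 (ENSG00000130649, chromosome 10, 133520406 to 133561220, plus strand) had 3 fragments in treated and 2 in control HepG2, and 6 in treated and 13 in control PLC/PRF/5 (0.0367 and 0.0632 FPKM). The PLC/PRF/5 ratio was 0.581 (0.181 to 1.64). SYCE1, on the other strand, overlaps 21.5% of the annotated CYP2E1 exon bases, and whether counting used strand is not given. SYCE1 was at 0 FPKM in both HepG2 libraries and at 0.0152 and 0.0362 FPKM in treated and control PLC/PRF/5.

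The sulfotransferase gene SULT2A1 (ENSG00000105398, chromosome 19, 47870466 to 47886397, minus strand) was at 54.8 FPKM (2122 fragments) in treated and 49.1 FPKM (1564 fragments) in control HepG2. In PLC/PRF/5 it was at 16.2 FPKM (525 fragments) with PF-429242, against 5.94 FPKM (242 fragments) in the control. The control PLC/PRF/5 library was the low one of the 4, and both PLC/PRF/5 libraries lay below both HepG2 libraries. The ratio of treated to control was 2.73 in PLC/PRF/5 (2.34 to 3.20) and 1.11 in HepG2 (1.04 to 1.19). On the log2(FPKM + 1) scale the difference was 1.31 in PLC/PRF/5, and SULT2A1 was the one member called at 2-fold or more in either line, where 1.48% of 13144 genes were called higher in PLC/PRF/5 and 1% of 12347 in HepG2. No member was called lower, against 1.82% of all genes in PLC/PRF/5 and 2.14% in HepG2.

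The P-glycoprotein gene ABCB1 (ENSG00000085563, chromosome 7, 87503633 to 87713323, minus strand) had the same order of libraries. It was at 24.0 FPKM (2835 fragments) in treated and 21.5 FPKM (2087 fragments) in control HepG2, and at 5.19 FPKM (512 fragments) in treated and 2.26 FPKM (281 fragments) in control PLC/PRF/5. The ratio was 2.29 in PLC/PRF/5 (1.98 to 2.66) and 1.12 in HepG2 (1.05 to 1.18). With the pseudocount of 1 its log2 difference in PLC/PRF/5 was 0.92, just under the 2-fold call, which it passed with a pseudocount of 0.1. RefSeq gives ABCB1 the upstream and downstream starts shown above, and one value per gene cannot tell them apart.

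For both genes the small HepG2 difference turned round with the scaling. On the scale of equal FPKM sums the HepG2 ratios were 0.885 for SULT2A1 (0.829 to 0.945) and 0.886 for ABCB1 (0.837 to 0.938). Most genes were lower there: the log2 difference was -0.17 for each of these genes, against a median of -0.45 over all genes. The PLC/PRF/5 ratios were 2.17 (1.86 to 2.53) and 1.82 (1.57 to 2.11) on that scale, and 2.99 (2.57 to 3.50) and 2.51 (2.17 to 2.92) with totals that leave out mitochondrial genes. The liver cell markers were also higher in treated PLC/PRF/5, with a summed level of 2976 FPKM in the treated and 2244 FPKM in the control library and 6 of 8 genes above 0 on the log2 scale. In HepG2 their sum was 8062 FPKM in the treated and 9334 FPKM in the control library, with none of 8 above 0. The 5 bile duct markers summed to 54.6 FPKM in treated and 46.4 FPKM in control PLC/PRF/5. Of the 4 measured there, EPCAM (ratio 1.68) and SOX9 (1.44) were higher and 2 were lower, CFTR (0.572) among them. In HepG2 the 5 summed to 119.5 FPKM in treated and 154 FPKM in control cells. All 3 measured there were lower, KRT19 (ratio 0.441) among them, and CFTR was at 0 in both libraries. The part of either marker list in the SULT2A1 and ABCB1 values was not tested.

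The pump gene ABCC2 (ENSG00000023839, chromosome 10, 99782640 to 99852594, plus strand) was at 67.4 FPKM (10751 fragments) in treated and 63.6 FPKM (8333 fragments) in control HepG2. It was at 91.0 FPKM (12113 fragments) in treated and 90.9 FPKM (15244 fragments) in control PLC/PRF/5, so here the PLC/PRF/5 libraries were the higher pair. The ratios were 1.06 in HepG2 (1.03 to 1.09) and 1.00 in PLC/PRF/5 (0.977 to 1.03). They were 0.842 and 0.793 on the scale of equal sums and 1.22 and 1.10 with totals that leave out mitochondrial genes, a spread from scaling that is wider than the counting intervals.

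ABCC3 (ENSG00000108846, chromosome 17, 50634777 to 50692252, plus strand) was at 5.59 FPKM (1093 fragments) in treated and 5.95 FPKM (956 fragments) in control HepG2, and at 2.62 FPKM (428 fragments) in treated and 1.804 FPKM (371 fragments) in control PLC/PRF/5. Its ratio was 0.939 in HepG2 (0.861 to 1.03) and 1.45 in PLC/PRF/5 (1.26 to 1.67). On the scale of equal sums the PLC/PRF/5 ratio was 1.15 (0.9996 to 1.33). Among the genes at 1 FPKM or more, 3 of 5 members had a counting interval above 1 in HepG2, against 3.55% of all genes, and 3 of 5 in PLC/PRF/5, against 10.4%. NR1I2 had one below 1 in HepG2, as did 50.3% of all genes, and no measured member had one below 1 in PLC/PRF/5, against 41.4%. Of the other drug handling genes listed below, 6 of 63 had an interval above 1 in HepG2 and 37 one below 1. In PLC/PRF/5 22 of 62 had one above 1 and 22 one below 1. Of the 8 liver cell markers, none had one above 1 in HepG2 and 8 had one below 1. In PLC/PRF/5 6 of these markers had one above 1 and 1 had one below 1. The member counts changed with the scaling. On the scale of equal FPKM sums none of the 5 had an interval above 1 in HepG2 and all 5 had one below 1. In PLC/PRF/5 2 had one above 1 (SULT2A1 and ABCB1) and 2 below 1 (CYP3A5 and ABCC2). How many of all genes had such intervals on that scale was not computed. Genes at large had a median log2 of -0.45 in HepG2 and -0.40 in PLC/PRF/5 there. In HepG2 SULT2A1 (-0.17), ABCB1 (-0.17), ABCC2 (-0.25) and ABCC3 (-0.37) lay above that value, and NR1I2 (-0.67) below it. In PLC/PRF/5 CYP3A5 (-0.17) and ABCC2 (-0.33) also lay above it. As deposited, the 5 members had a median of 0.08 on the log2 scale in HepG2, where that of all genes was -0.17. In PLC/PRF/5 the 5 had one of 0.37, where that of all genes was -0.13.

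**Figure D3:**
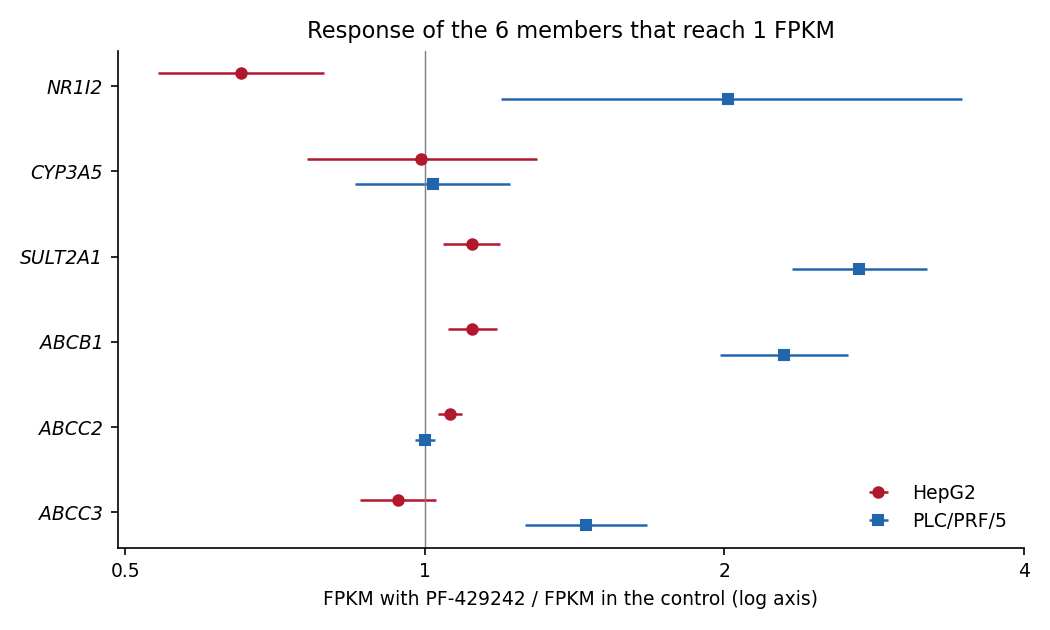
Ratio of FPKM with PF-429242 to FPKM in the control (log axis) for the 6 members that reach 1 FPKM in at least 2 libraries, with 95% counting intervals, HepG2 above PLC/PRF/5 for each gene. SULT2A1 (2.73), ABCB1 (2.29), NR1I2 (2.01) and ABCC3 (1.45) lie above 1 in PLC/PRF/5, where CYP3A5 and ABCC2 lie at 1.02 and 1.00.

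The size of the response was set side by side between the lines as the ratio of the PLC/PRF/5 response to the HepG2 response. This quotient was 2.45 for SULT2A1 (95% exact conditional interval 2.07 to 2.91, counting error only), 2.06 for ABCB1 (1.75 to 2.41), 3.08 for NR1I2 (1.75 to 5.49) and 1.55 for ABCC3 (1.31 to 1.83). It was 0.944 for ABCC2 (0.909 to 0.980) and 1.03 for CYP3A5 (0.742 to 1.42). For CYP3A4 it was 0.690 (0.0555 to 8.10), for CYP3A7 2.80 (0.135 to 173) and for CYP2E1 0.472 (0.0331 to 5.56). With 1 library per group these quotients compare 4 libraries and are no test of the lines.

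Between the untreated lines, 4 of the 6 members measured in that comparison were called higher in HepG2 and none in PLC/PRF/5, where 10% and 13.1% of 13861 genes were called. There 7 of 8 liver cell markers and 3 of 5 uptake transporters were called higher in HepG2 and none of either lower. The counts higher and lower were 7 and 3 of 17 other oxidation, reduction and hydrolysis enzymes, and 6 and 3 of 15 other conjugation enzymes. They were 3 and 2 of 8 other P450 and electron donor genes, and 2 and 3 of 10 other efflux transporters. For receptors and liver factors they were 3 and 3 of 14, and for other PXR-induced genes 2 and 0 of 3. The ratio of control HepG2 to control PLC/PRF/5 was 12.5 for NR1I2 (8.29 to 19.7), 9.50 for ABCB1 (8.38 to 10.8), 8.27 for SULT2A1 (7.21 to 9.50) and 3.30 for ABCC3 (2.92 to 3.73). It was 0.699 for ABCC2 (0.681 to 0.718) and 0.489 for CYP3A5 (0.388 to 0.614). CYP3A7 had 21 and 1 fragments in the controls of HepG2 and PLC/PRF/5, a ratio of 26.9 with an interval from 4.32 to 1111. Between the treated libraries, HepG2 over PLC/PRF/5, the ratios were 4.07 for NR1I2 (2.88 to 5.87), 4.62 for ABCB1 (4.204 to 5.09), 3.37 for SULT2A1 (3.06 to 3.72) and 2.13 for ABCC3 (1.90 to 2.39). Of these, SULT2A1 and ABCB1 passed the 2-fold call between the treated libraries, and no member was called lower, where 5.87% and 12% of 13285 genes were called. By the counting interval 4 members were above 1 and 2 below it in both comparisons, where 34.6% and 40.6% of all genes were so between the controls and 29.4% and 41.9% between the treated libraries.

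A fit of treatment across both lines, with the line as a block, used the lines as the replicates (limma, 1 residual degree of freedom). It called none of 12838 genes at an adjusted p under 0.05 (0%), and gave 2488 genes an unadjusted p under 0.05, none of them among the 6 members tested. With median-of-ratios scaling 3 of the 6 members had an unadjusted p under 0.05 (ABCB1, SULT2A1 and ABCC2), as did 1384 of 12874 genes. With a pseudocount of 5, 1 of the 6 members had (ABCB1), as did 2278 of 12838 genes. None of these members had an adjusted p under 0.05. The estimate for SULT2A1 was 0.73 on the log2 scale (95% interval -0.09 to 1.55, limma adjusted p 0.285), higher in 2 of 2 lines. For ABCB1 it was 0.54 (-0.04 to 1.11, limma adjusted p 0.274), also higher in 2 of 2 lines. For both genes that count holds as deposited, while on the scale of equal FPKM sums they were higher in PLC/PRF/5 and lower in HepG2. NR1I2, whose lines went opposite ways, had -0.09 (-0.69 to 0.51, limma adjusted p 0.822). The voom version on the recovered fragments likewise called 0 genes, with 3133 at an unadjusted p under 0.05.

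**Figure D4:**
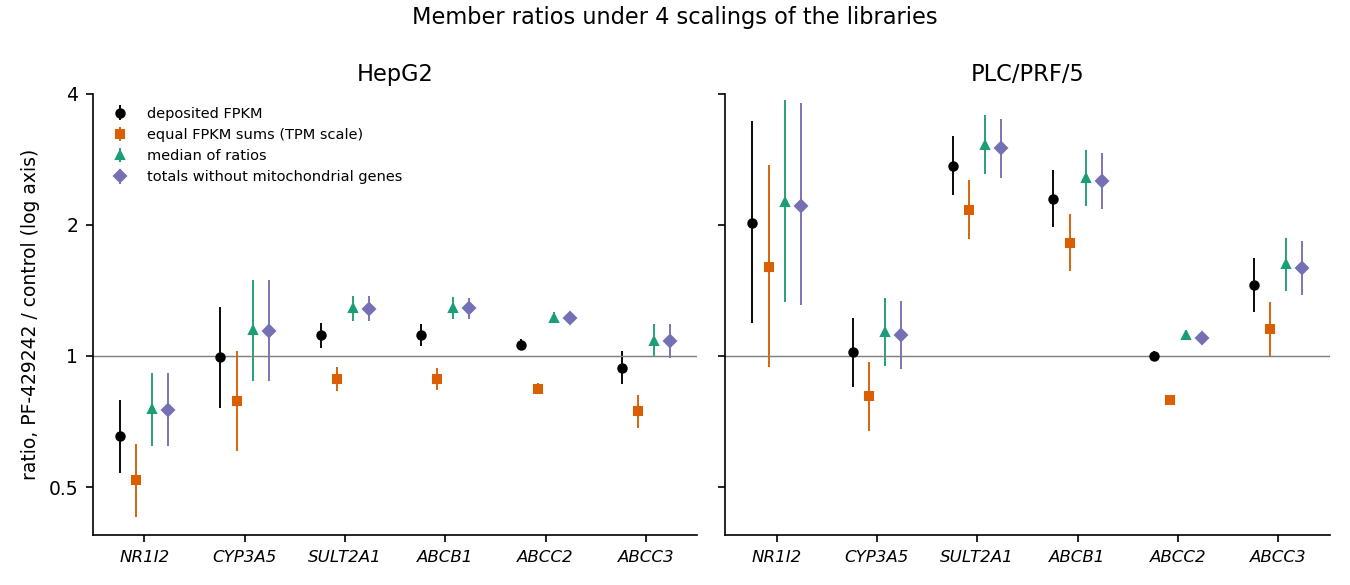
Ratio of PF-429242 to control (log axis) for the same 6 genes under 4 scalings of the libraries, with 95% counting intervals, HepG2 at left and PLC/PRF/5 at right. SULT2A1 stays between 2.17 and 3.05 in PLC/PRF/5, whereas in HepG2 SULT2A1, ABCB1 and ABCC2 lie above 1 under all scalings but that of equal FPKM sums.

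Other genes of drug handling were taken from 7 lists, of which 104 of 107 genes were in the table. Of these, 63 were at 1 FPKM or more in HepG2, where 1 was called higher and 2 lower, and 62 in PLC/PRF/5, where 1 was called higher and none lower. Over all genes 1% were called higher and 2.14% lower in HepG2, and 1.48% higher and 1.82% lower in PLC/PRF/5, so the list genes were called about as often as genes at large. The gene called in both lines was CYP1A1, the P450 induced through the aryl hydrocarbon receptor, at 7.62 and 1.94 FPKM in treated and control HepG2 and 35.02 and 13.65 FPKM in treated and control PLC/PRF/5. On the scale of equal FPKM sums its log2 difference in PLC/PRF/5 was 0.98, under the call, and NAT1 was called lower there instead. Called lower in HepG2 were the fatty acid hydroxylase gene CYP4F2, at 0.222 FPKM (14 fragments) in treated and 1.62 FPKM (84 fragments) in control cells, and the organic anion carrier gene SLCO4C1, at 3.87 and 10.2 FPKM. The P450 gene CYP2W1 had ratios of 0.631 (0.553 to 0.719) in HepG2 and 1.68 (1.28 to 2.22) in PLC/PRF/5, and the cytochrome b5 reductase gene CYB5R3 of 0.751 (0.709 to 0.794) and 0.928 (0.864 to 0.997), with none of these called. The medians of these lists lay between -0.34 and -0.05 in HepG2 and between -0.09 and 0.17 in PLC/PRF/5.

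Among receptors and liver factors, 0 of 14 measured genes were called in either line. NR0B2, the bile acid-induced repressor SHP, was at 36.8 and 25.05 FPKM in treated and control HepG2 and at 16.9 and 8.15 FPKM in treated and control PLC/PRF/5, a ratio of 1.47 (1.31 to 1.65) and 2.08 (1.74 to 2.49). The coactivator gene PPARGC1A had ratios of 1.71 (1.52 to 1.93) in HepG2 and 1.33 (1.197 to 1.48) in PLC/PRF/5, and CEBPB of 1.48 (1.34 to 1.64) and 1.42 (1.31 to 1.54). The PXR partner gene RXRA was at 5.39 and 5.98 FPKM in treated and control HepG2 and at 2.39 and 1.99 FPKM in treated and control PLC/PRF/5.

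Of 8 other genes known to be induced through PXR, 3 were measured in each line and none was called. The citrate carrier gene SLC13A5 was at 10.4 and 10.7 FPKM in treated and control HepG2 and at 4.002 and 1.68 FPKM in treated and control PLC/PRF/5 (ratio 2.38, 2.08 to 2.73). ALAS1, the first enzyme of heme synthesis, had ratios of 0.965 (0.857 to 1.09) and 0.832 (0.764 to 0.907), and POR, the electron donor of the P450 enzymes, of 0.857 (0.821 to 0.895) and 1.12 (1.05 to 1.18), in HepG2 and PLC/PRF/5 in that order. CYP2B6, CYP2C8, CYP2A6 and UGT1A1 stayed below 1 FPKM in all 4 libraries.

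The transporter lists held differences both ways in PLC/PRF/5, none of them called. The cation exporter gene SLC47A1 was at 4.13 and 2.04 FPKM in treated and control PLC/PRF/5 (ratio 2.02, 1.72 to 2.38) and the cation carrier gene SLC22A3 at 4.83 and 2.11 FPKM (2.29, 1.86 to 2.82). In HepG2 their ratios were 0.947 (0.877 to 1.02) and 0.836 (0.772 to 0.906). The efflux pump genes ABCG2 and ABCC4 were the other way, at 7.44 and 10.9 FPKM and at 9.12 and 13.3 FPKM in treated and control PLC/PRF/5, with ratios of 0.684 (0.623 to 0.750) and 0.688 (0.643 to 0.736). SLCO2B1, an organic anion uptake carrier, had ratios of 0.672 (0.566 to 0.798) in HepG2 and 0.547 (0.467 to 0.639) in PLC/PRF/5.

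Among conjugation and hydrolysis enzymes the sulfotransferase gene SULT1A2 was at 3.24 and 1.41 FPKM in treated and control PLC/PRF/5 (ratio 2.29, 1.69 to 3.14), and the carboxylesterase gene CES1 at 4.81 and 2.63 FPKM (1.83, 1.50 to 2.25). In HepG2 these were at 8.07 and 6.72 FPKM (1.201, 1.02 to 1.42) and at 25.6 and 30.5 FPKM (0.841, 0.783 to 0.904). The aldehyde oxidase gene AOX1 had ratios of 0.885 (0.813 to 0.964) in HepG2 and 1.99 (1.62 to 2.47) in PLC/PRF/5, and the monoamine oxidase gene MAOB of 0.749 (0.673 to 0.834) and 1.37 (1.05 to 1.78). NAT1, an arylamine acetyltransferase, was at 0.982 and 0.987 FPKM in treated and control HepG2 and at 1.77 and 3.92 FPKM in treated and control PLC/PRF/5 (0.453, 0.355 to 0.575). The sulfate donor enzyme gene PAPSS2 was at 5.13 and 7.41 FPKM in treated and control PLC/PRF/5 (0.693, 0.607 to 0.790).

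**Figure D5:**
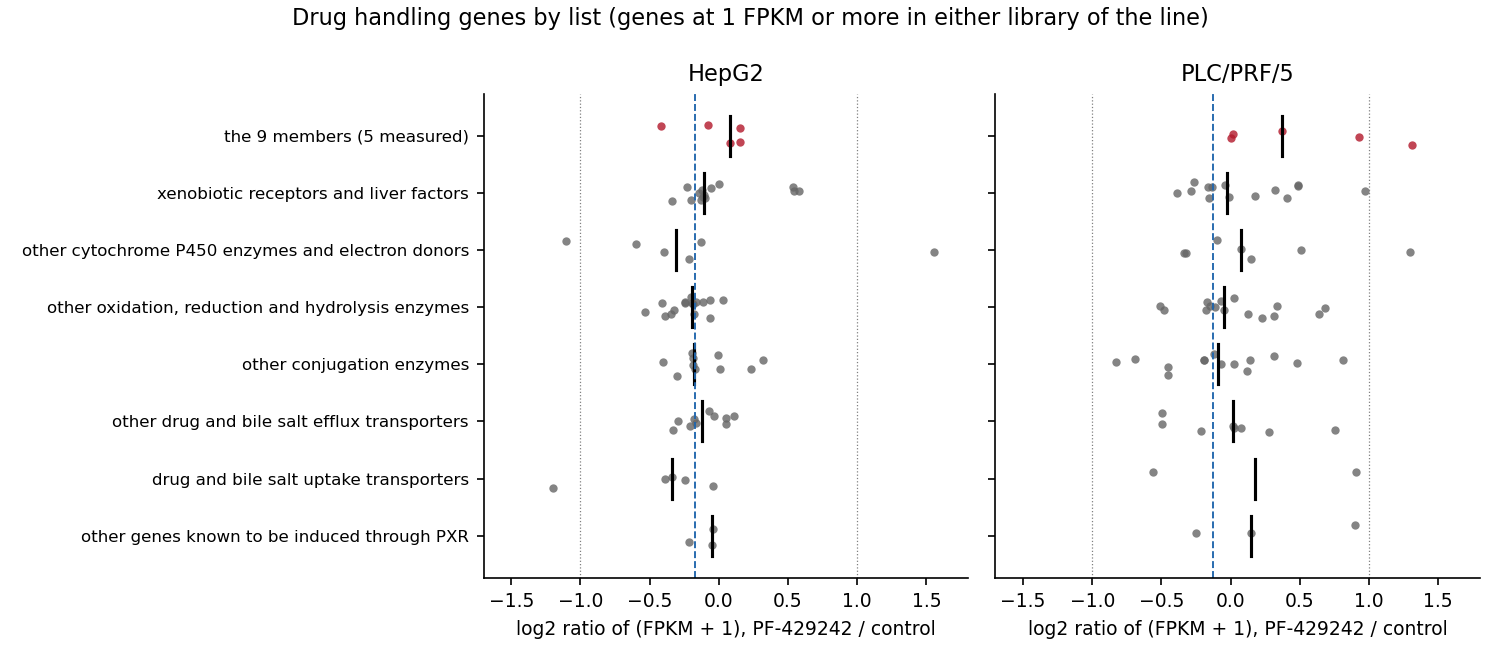
Log2 ratio of (FPKM + 1), PF-429242 over control, for the genes of each list at 1 FPKM or more in either library of the line, with HepG2 at left and PLC/PRF/5 at right, black bars at list medians, a dashed line at the median of all genes and dotted lines at 2-fold. SULT2A1 (1.31) and CYP1A1 (1.30) are the points past 2-fold in PLC/PRF/5.

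For the 6 members measured in at least 2 libraries, the most similar of 10662 other protein-coding genes were found by the distance of log2(FPKM + 1), centred on each gene's mean over the 4 libraries. AKR1C1, an aldo-keto reductase gene, was nearest to SULT2A1 (distance 0.242), at 115 and 106 FPKM in treated and control HepG2 and 35.5 and 16.7 FPKM in treated and control PLC/PRF/5, and it was the one gene within 0.25. The next were ABCB1 (0.302) and AHSG (0.303), which encodes the plasma protein fetuin-A. For ABCB1 the nearest were CPN2 (0.159), AHSG (0.176) and the glutamine transporter gene SLC38A3 (0.202), and 8 genes lay within 0.25. The nearest genes were C20orf204, CERS4 and SEMA3G for NR1I2, IRAK2, LGALS8 and STX1A for CYP3A5, PYROXD1, MED10 and CRTC3 for ABCC2, and FCGBP, SMARCA4 and FUT6 for ABCC3. Between 144 and 1104 genes lay within 0.25 of these 4, so likeness over 4 libraries separates few genes from them.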

How the data were processed

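The authors deposited FPKM values, fragments divided by gene length and by library total, for 32479 genes in 4 libraries. TopHat2 and GRCh38 are named per the submitters' processing notes. The counting program, annotation and strand setting were not stated in the sources read. Groups came from the labels, with 1 library each. The 9 genes and the lists were chosen with earlier results of these data known. Names and positions are those of GENCODE 29 on GRCh38, which held 32354 identifiers.

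Fragments were recovered as whole multiples of 1 fragment within 0.0001, at the GENCODE exon length for 24386 genes (75.1%) and at another length for 8092; 1 gene was unsolved. The totals set precision: 3 fragments on 1 kb are 0.140 to 0.179 FPKM. Ratio intervals (95%) used scipy 1.17.1. Genes were called at 2-fold on log2(FPKM + 1), with 1 FPKM or more in either library, a scale that understates changes of low genes. limma 3.58.1 (R 4.3.3, lmFit, eBayes with trend, Benjamini-Hochberg) fitted genes at 1 FPKM in at least 2 libraries. The fit was also run on simulated counts with the same fold in both lines. These data differ from that setting, so nothing is concluded from that run. Named list genes were those called in either line and the 3 per list with the largest mean change; RXRA, MBTPS1 and the unmeasured PXR-induced genes were named after their values were seen. Alternatives were other pseudocounts, filters, folds, scalings and limma settings.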

Additional observations from a re-analysis of the deposited data

Results flagged for a closer look

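Among the 9 members, NR1I2 alone had counting intervals on opposite sides of 1 in the lines. The ratio of PF-429242 to control FPKM was 0.654 in HepG2, from 195 and 245 fragments, and 2.01 in PLC/PRF/5, from 40 and 25 fragments. The difference between the lines was not tested, since each group held 1 library, and the PLC/PRF/5 counting interval reached below 1 on the scale of equal FPKM sums (0.945 to 2.75). The pattern is not particular to NR1I2: 13 of 104 other list genes also had an interval below 1 in HepG2 and above 1 in PLC/PRF/5. CYP2W1, MAOB, CES1 and AOX1 were among them, none had the opposite, and no filter on level was used. Among all genes at 1 FPKM or more, 50.3% had an interval below 1 in HepG2 and 10.4% one above 1 in PLC/PRF/5. The opposite sides held 3.55% in HepG2 and 41.4% in PLC/PRF/5. The share of all genes with both was not computed, so these counts have no background.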

How the results depend on the processing

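No pairing beyond that by cell line was possible because the labels give no replicate numbers that pair libraries. The line was the block of the limma fit; without it 112 genes had an unadjusted p under 0.05, against 2488 with it, and leaving out a line leaves no residual degrees of freedom. Members called were 0 in HepG2 under all 9 alternatives. In PLC/PRF/5 they were 2 (SULT2A1 and ABCB1) with a pseudocount of 0.1, median-of-ratios scaling, totals without mitochondrial genes or 1.5-fold, and 0 with a pseudocount of 5 or 4-fold. Over all genes in PLC/PRF/5, 194 of 13144 were called higher and 239 lower in the main setting. These were 447 and 484 with a pseudocount of 0.1, and 18 and 36 with one of 5. At 1.5-fold they were 559 and 666, and at 4-fold 3 and 32. Median-of-ratios scaling gave 253 and 196 of 13065 genes, and totals without mitochondrial genes 257 and 210 of 13205. Equal FPKM sums gave 89 and 375 of 12978. Members called between the controls were 2 (SULT2A1 and ABCB1) with a pseudocount of 5 or 4-fold. They were 3 with at least 5 FPKM in either library, where NR1I2 was filtered out. Over all genes, 1391 of 13861 were called higher in control HepG2 in the main setting, 429 with a pseudocount of 5 and 232 at 4-fold. With at least 5 FPKM they were 785 of 7439. Other list genes called in HepG2 were 0 with a pseudocount of 5 or 4-fold. Of all 12347 genes there, 9 were called higher and 35 lower with a pseudocount of 5, and 6 and 26 at 4-fold. In PLC/PRF/5 the list genes called were 7 with a pseudocount of 0.1, 4 under median-of-ratios scaling and 3 with totals without mitochondrial genes. They were 10 at 1.5-fold and 0 at 4-fold, and with equal FPKM sums the 1 gene called was lower, not higher. The cause was not tested beyond the threshold each setting moves. The share of higher calls among all genes past 2-fold was 31.96% in HepG2 and 44.8% in PLC/PRF/5 as deposited, 17.8% and 19.2% with equal FPKM sums, 44.8% and 56.3% under median-of-ratios scaling and 44.4% and 55.0% with totals without mitochondrial genes. The median log2 ratio of all genes on these scales was -0.45 and -0.40, -0.0023 and 0.0044, and -0.0047 and -0.019. Quotients of the lines' responses with an interval apart from 1 numbered 5 of 9 on each of the 3 scales run. The share over all genes was not computed for these quotients. limma called 0 genes and 0 members in each of its 8 alternatives.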

Other observations

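ABCB4, the phospholipid pump gene next to ABCB1 on chromosome 7, was named after its values were seen. It was at 2.54 FPKM (399 fragments) in treated and 2.28 FPKM (295 fragments) in control HepG2, and at 0.396 FPKM (52 fragments) in treated and 0.163 FPKM (27 fragments) in control PLC/PRF/5, the same order of libraries as ABCB1. Its transcripts hold 2.02% of the 50-base stretches of ABCB1.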
